A study of Mus musculus with 3 samples.

Results

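The 10 genes described here are the receptors and the direct response genes of fibroblast growth factor (FGF) signalling. They are the 4 receptors Fgfr1, Fgfr2, Fgfr3 and Fgfr4, the feedback inhibitors Spry1, Spry2, Spry4 and Dusp6, and the transcription factors Etv4 and Etv5. They were taken by symbol from the 51923 genes of the deposited matrix, of which 35403 had at least 1 unique molecular identifier (UMI, a tag that counts 1 captured RNA molecule). Each symbol matched 1 gene. The cells were mesoderm and its descendants from C57BL/6 mouse embryos carrying Mesp1-Cre and the Ai9 reporter, in which the Cre recombinase of early mesoderm switches on a red fluorescent protein by which the cells were sorted. Control embryos carried 1 floxed Wls allele (Wls fl/+) and mutant embryos carried 2 (Wls fl/fl), so the controls were heterozygous for the deletion in the sorted cells and no Cre-negative embryos were among the groups. Wls is the carrier that cells need to secrete Wnt ligands, and the study asked how Wnt secretion from the heart fields bears on the fate of the second heart field. Embryos were tagged with lipid-anchored MULTI-seq barcodes before pooling, and each barcode is called a sample here and named as in the deposited table (Bar1 and so on).

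There were 22 samples. At embryonic day (E) 8.0 there were 3 control and 3 mutant samples, at E8.5 there were 2 and 1, at E9.5 there were 6 and 6, and 1 sample of 28 cells was labelled E7.5 control. Whether a barcode held 1 embryo or several is not stated in the sources used here, so p-values measure the spread between barcode samples.

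Positions are given on GRCm38 with the GENCODE M21 annotation, and all values are sums over the whole gene. Fgfr1 (ENSMUSG00000031565) spans chr8:25513654-25575718 and Fgfr2 (ENSMUSG00000030849) spans chr7:130162451-133123350. The annotated span of Fgfr2 holds other genes, among them Ate1 on the same strand. Fgfr3 (ENSMUSG00000054252) spans chr5:33721674-33737068 and Fgfr4 (ENSMUSG00000005320) spans chr13:55152640-55168759. Spry1 (ENSMUSG00000037211) spans chr3:37639947-37644598, Spry2 (ENSMUSG00000022114) spans chr14:105891947-105896819 and Spry4 (ENSMUSG00000024427) spans chr18:38586247-38601415. Dusp6 (ENSMUSG00000019960) spans chr10:99263231-99267489, Etv4 (ENSMUSG00000017724) spans chr11:101769742-101785371 and Etv5 (ENSMUSG00000013089) spans chr16:22381309-22439719. The processed pseudogene Fgfr3-ps is a separate gene of the annotation, and reads shared with it could be assigned to either.

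FGF ligands bind receptor tyrosine kinases at the cell surface, and the activated receptors pass the signal through Frs2, Grb2 and Ras to the kinase ERK. ERK activity switches on a recurrent set of genes in embryonic tissues, among them the ETS-family factors Etv4 and Etv5, the ERK phosphatase Dusp6 and the Sprouty proteins, and the last of these damp the pathway in turn. In the second heart field, the progenitor pool that adds cells to both poles of the heart tube, FGF8 and FGF10 signalling is known for its role in the anterior part, which builds the outflow tract.

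The 250 bases before the annotated start of Dusp6 and of Spry2 are shown because these feedback genes moved together between the anterior and posterior heart field in the comparison described further on, and because neither window overlaps an annotated exon. They are the RefSeq entries for GRCm38.p6, written 5′ to 3′ on the strand of the gene, at chr10:99262981-99263230 (plus strand) for Dusp6 and chr14:105896820-105897069 (minus strand) for Spry2. RefSeq promoter entries were matched for 7 of the 10 genes. Capitals mark the core that ETS-family factors such as Etv4 and Etv5 recognise, GGAA or its complement TTCC.
Dusp6: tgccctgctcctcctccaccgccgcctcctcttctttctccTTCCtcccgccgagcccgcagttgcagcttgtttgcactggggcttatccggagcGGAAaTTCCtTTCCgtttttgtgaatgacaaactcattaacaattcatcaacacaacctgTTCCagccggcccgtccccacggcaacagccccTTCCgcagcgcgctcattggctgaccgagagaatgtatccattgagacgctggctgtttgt
Spry2: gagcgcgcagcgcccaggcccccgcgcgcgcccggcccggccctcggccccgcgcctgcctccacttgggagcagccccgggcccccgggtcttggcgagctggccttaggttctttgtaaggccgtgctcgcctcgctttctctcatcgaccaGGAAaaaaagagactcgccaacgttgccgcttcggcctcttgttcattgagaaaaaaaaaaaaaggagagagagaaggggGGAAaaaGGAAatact
The Dusp6 window held 6 such cores and the Spry2 window held 3. The core is short and common, since 93.4% of 32851 RefSeq promoter windows of the same length held it on 1 strand or the other, with a median of 3 matches. The longer form CCGGAA, searched on both strands, is present in 12.0% of the windows and was not found in these letters of the Dusp6 and Spry2 windows.

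The 22 samples together held 14777 cells and a median of 21739 UMIs per cell. Samples ranged from 134457 to 61307782 UMIs, so that 3 UMIs were worth between 0.0489 and 22.3 CPM, the scale on which the UMIs of a gene are set to the same total in every sample. Run 1 held every E8.0 sample and run 2 every E8.5 sample, and the E9.5 samples were divided over runs 1, 2 and 3, so stage and run overlap. Run 3 was the shallowest, with a median of 11866 UMIs per cell against 23112 and 23555 in runs 1 and 2. The targeted gene Wls was at 35.9 to 65.4 CPM in the E8.0 to E9.5 controls and at 3.72 to 14.2 CPM in the mutants, and the sample labelled E7.5 control was at 14.1 CPM, within the mutant range. At E8.0 the mutant samples held 80.5 to 82.4% cells with Y-linked and without Xist RNA against 1.63 to 42.6% in the controls. Sex and genotype are thus partly confounded there. At E9.5 the shares were uneven within runs. In run 1 controls were at 1.45 and 1.63% and mutants at 79.4, 2.33 and 78.1%. In run 2 controls were at 1.15 and 100% (Bar6) and the mutant at 82.5%. Run 3 leaned the other way, with controls at 61.6 and 1.89% and mutants at 2.98 and 1.79%. The control Bar29 (42.6%) and the E9.5 control Bar7 (61.6%) had intermediate shares. The smallest sample, the E9.5 control Bar6, held 6 cells, and 23 cell barcode sequences occurred in more than 1 run.

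**Figure D1:**
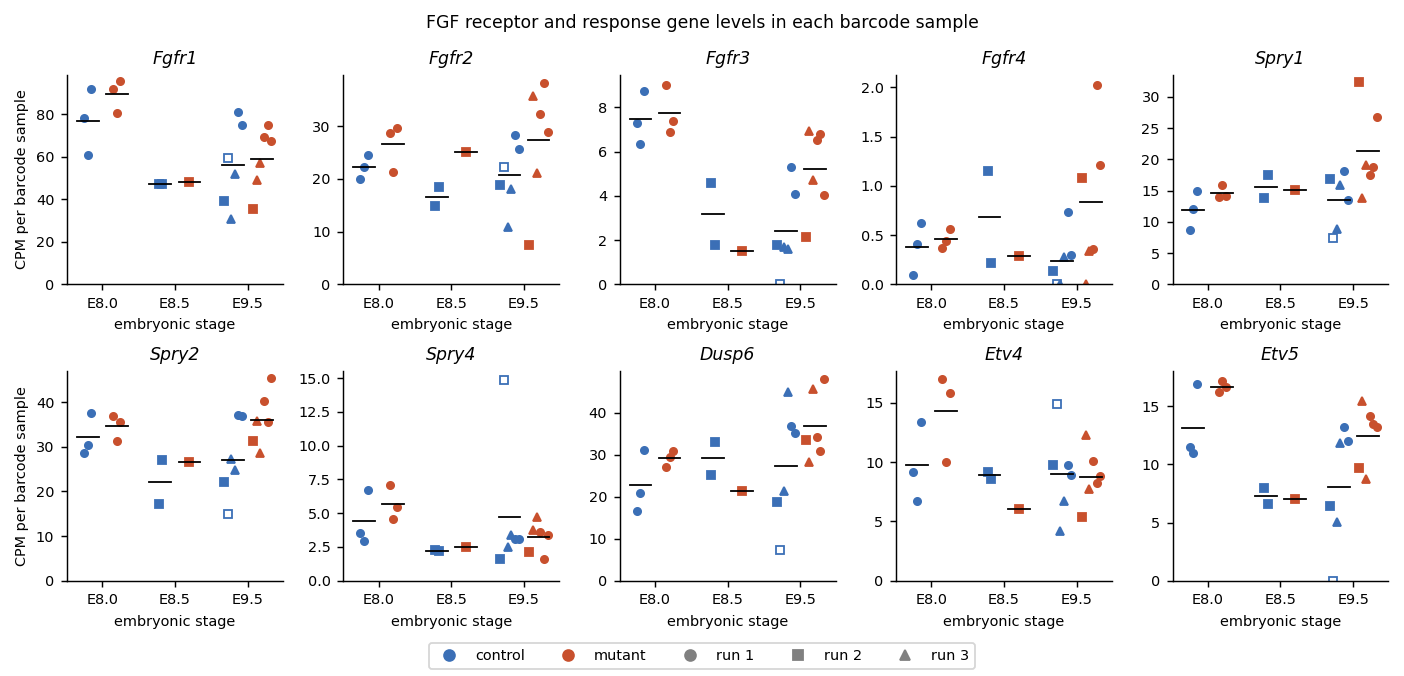
Levels of the 10 genes in CPM (linear axes from 0) in each E8.0, E8.5 and E9.5 barcode sample, by stage and genotype, with black bars for group means, symbols for the 3 sequencing runs and an open symbol for the sample under 20 cells; the E7.5 sample is not drawn. Fgfr1 was between 30.6 and 95.3 CPM in these samples, Fgfr4 between 0 and 2.03 CPM, and the control and mutant samples overlapped for each gene at E8.0 and at E9.5.

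Among the receptors, Fgfr1 gave most of the UMIs, 22327 over all cells, followed by Fgfr2 with 8087, Fgfr3 with 1544 and Fgfr4 with 163. These totals are not corrected for how well each transcript's end is captured, so they show the precision of each gene's values and not an order of expression. Among the response genes Spry2 had 10836 UMIs, Dusp6 10692, Spry1 5387, Etv5 3873, Etv4 3151 and Spry4 1105. Fgfr4 was near the counting limit in whole samples, and 138 of the 14777 cells held a UMI of it.

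To see in which cells the genes were expressed, cells were called positive for a lineage when they held at least 3 of 6 fixed marker genes, none of which is among the 10. This gave 2118 cells positive for the pharyngeal and anterior second heart field (markers that include Isl1, Tbx1, Tcf21 and Lhx2) and 3069 for the posterior second heart field (Osr1, Tbx5, Hoxb1, Foxf1, Aldh1a2 and Wnt2). It also gave 2402 cells for paraxial mesoderm, 2320 for blood, 1214 for cardiomyocytes, 692 for endothelium, 521 for posterior lateral plate and allantois, 502 for proepicardium, 261 for neural cells and 138 for endoderm and epithelium. The threshold is a range and not a cell type. In the anterior field 1352 cells held exactly 3 markers and 2825 held 2, and in the posterior field 1558 held 3 and 2666 held 2. Of all cells 24.9% were positive for no lineage, 62.4% for 1 and 12.6% for 2 or more, and these last were counted in each. Neural and endoderm markers belong to other germ layers than the sorted mesoderm, and the cells that hold them are described by those markers only.

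Sums of positive cells were compared with sums of all other cells of the same samples. Over 9 lineages and the genes with enough counts, 60 of 85 pairs of gene and lineage passed the test, 26 higher and 34 lower in the positive cells. These shares must be read against those of all genes, which were large as well. All genes called amounted to 35.8% in the anterior field, 39.5% in the posterior field, 37.2% in paraxial mesoderm, 62.3% in cardiomyocytes, 40.3% in endothelium, 23.4% in proepicardium, 24.7% in posterior lateral plate and allantois, 16.3% in neural cells and 76.4% in blood. Adjusted p-values are from edgeR's quasi-likelihood test with Benjamini-Hochberg adjustment over all genes tested.

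**Figure D2:**
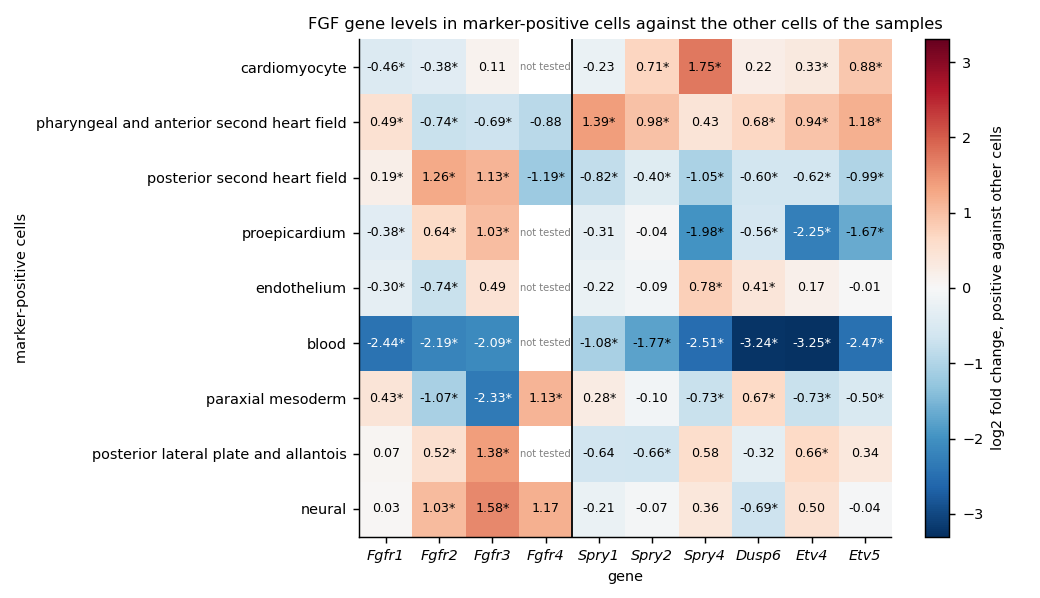
Log2 difference of each gene (columns) between marker-positive cells of a lineage (rows) and the other cells of the same samples, by colour, with a star where the adjusted p is under 0.05 and the words not tested where the gene had too few counts. The anterior second heart field row is positive for the response genes and the posterior row is negative for them, while blood is negative in every tested column.

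The receptors were spread over different lineages. Fgfr2, best known from epithelia and limb mesenchyme, stood at 37.3 to 61.9 CPM with a median of 44.2 CPM in posterior second heart field cells (16 samples). It was higher there than in the other cells in 16 of 16 samples, with means of 45.7 ± 7.3 against 18.0 ± 5.3 CPM (SD) and a log2 difference of 1.26 (SE 0.09, adjusted p = 1.25e-10). It was also higher in neural-positive cells (1.03) and proepicardium (0.64), the source of the epicardium, and lower in paraxial mesoderm (-1.07), the anterior field (-0.74) and endothelium (-0.74).

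Fgfr3, which is known as a brake on cartilage growth, went with Fgfr2 in the posterior field, where its means were 8.66 ± 5.34 against 3.75 ± 1.64 CPM and the log2 difference was 1.13 (SE 0.15, adjusted p = 3.17e-06). When the markers were read in cells thinned to 5000 UMIs this difference was 0.54 (adjusted p = 0.065), no longer past the threshold. In paraxial mesoderm, Fgfr3 was at 0 to 4.92 CPM with a median of 1.06 CPM (16 samples), lower than in the other cells in 16 of 16 samples, with a log2 difference of -2.33 (SE 0.19, adjusted p = 2.34e-10). Its higher values in posterior lateral plate and allantois (1.38) and in neural cells (1.58) rested on few cells, and the 4 E9.5 samples of the former ran from 5.54 to 48.8 CPM. In cells of the posterior lateral plate and allantois the Fgfr3 call was lost when the markers were read in thinned cells (1.36, adjusted p = 0.0937).

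Fgfr1, the main FGF receptor of early mesoderm, was higher in some lineages and lower in others. Its mean was 94.4 ± 23.6 CPM in paraxial mesoderm against 65.2 ± 16.8 CPM in the other cells, a log2 difference of 0.43 (SE 0.05, adjusted p = 1.11e-07) with the same direction in 16 of 16 samples. In the anterior field the Fgfr1 difference was 0.49, while in cardiomyocytes it was -0.46, in proepicardium -0.38 and in endothelium -0.30. The endothelial call for Fgfr1 was lost in cells positive for 1 lineage alone (-0.20, adjusted p = 0.129). It was also lost with markers read in thinned cells (-0.19, adjusted p = 0.375). Fgfr4, known from somites and liver, was tested in 4 lineages. It was higher in paraxial mesoderm by 1.13 (SE 0.33, adjusted p = 0.00836), on means of 0.94 ± 1.09 and 0.45 ± 0.45 CPM, and lower in the posterior field by the fit (-1.19, SE 0.39, adjusted p = 0.0174). The unweighted means behind the posterior Fgfr4 call were closer than that, at 0.503 ± 0.802 against 0.598 ± 0.641 CPM, with the positive cells higher in 4 of 16 samples. The paraxial call for Fgfr4 was lost with at least 4 of 6 markers (0.90, adjusted p = 0.0626).

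In the anterior second heart field 5 of the 6 response genes were higher than in the other cells, where 14.9% of all genes were higher. Spry1, an inhibitor of receptor tyrosine kinase signalling, stood at 22.1 to 56.4 CPM with a median of 37.6 CPM there, against a mean of 12.5 ± 3.4 CPM in the other cells. The positive cells were higher in 15 of 15 samples, and the log2 difference was 1.39 (SE 0.05, adjusted p = 5.36e-15). Etv5 stood at 12.6 to 40.3 CPM with a median of 24.3 CPM in these cells, also higher in 15 of 15 samples (1.18, SE 0.09, adjusted p = 1.08e-10).
Spry2, a close relative of Spry1, was higher in the anterior field by 0.98, Etv4 by 0.94 and Dusp6 by 0.68. Spry4 differed by 0.43 (adjusted p = 0.0561) and passed only under the 3 alternative marker rules, where it differed by 0.68 to 1.20.

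In the posterior second heart field all 6 response genes were lower than in the other cells, where 21.1% of all genes were lower, by -0.40 for Spry2 to -1.05 for Spry4, and Etv5 was lower by -0.99 in 15 of 16 samples. Fgfr2 and Fgfr3 were higher in the same cells. Fgfr1 was higher beside all other cells (0.19) but not beside the other cells without blood (-0.061, adjusted p = 0.287). In proepicardium, Etv4 was at 0 to 4.85 CPM with a median of 2.44 CPM, and the other cells of those 8 samples were at 8.70 ± 1.48 CPM. Its log2 difference of -2.25 (SE 0.32, adjusted p = 7.36e-06) and that of Etv5 (-1.67) stood beside a Spry2 difference of -0.04 (adjusted p = 0.913). Spry4 was lower on 8 UMIs in the 425 proepicardium-positive cells of those samples (-1.98), and that call was lost with at least 4 of 6 markers (-1.56, adjusted p = 0.233).

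Cardiomyocyte-positive cells were lower for Fgfr1 and Fgfr2 and higher for Spry4, Etv5, Spry2 and Etv4. These were 6 of the 9 genes tested, a share near the 62.3% of all genes called in these cells. Spry4 stood at 0 to 24.2 CPM with a median of 10.1 CPM in these cells, against 2.88 ± 1.25 CPM in the others, and was higher in 17 of 18 samples (1.75, SE 0.22, adjusted p = 9.77e-08). Spry2 was higher in 18 of 18 samples (0.71) and Etv5 likewise in 18 of 18 (0.88). The call for Etv4 (0.33, adjusted p = 0.0438) was lost in cells positive for this lineage alone (0.28, adjusted p = 0.116).

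Endothelium had more Dusp6 (0.41, SE 0.08, adjusted p = 0.000228, 14 of 14 samples) and more Spry4 (0.78, SE 0.20, adjusted p = 0.00333), the latter not called in cells positive for 1 lineage alone (0.90, adjusted p = 0.0519). With the receptors described above, 4 of 9 genes tested were called in endothelium, a share near the 40.3% of all genes. Paraxial mesoderm had more Dusp6 (0.67, SE 0.07, adjusted p = 8.24e-08, 16 of 16 samples) and less Etv4 (-0.73), Spry4 (-0.73) and Etv5 (-0.50), so the response genes did not move as a block there. Spry1 in paraxial mesoderm (0.28, adjusted p = 0.0165) changed sign under stricter markers. Posterior lateral plate and allantois had more Etv4 (0.66, SE 0.15, adjusted p = 0.00417) and less Spry2 (-0.66), and both calls were lost with at least 4 of 6 markers. The 5 samples with enough neural-positive cells had less Dusp6 (-0.69, adjusted p = 0.0111).

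Blood cells were low for all 9 genes tested, where 43.9% of all genes were lower, from -1.08 for Spry1 to -3.25 for Etv4, and Dusp6 stood at 0 to 4.63 CPM against 39.1 ± 11.2 CPM in the other cells. Shares of cells with a UMI are given in blood for comparison, and whether its UMIs are free RNA or expression was not tested. At full depth 15.7% of control blood cells held a UMI of Fgfr1, 14.0% of Spry2, 10.9% of Spry1 and 4.31% of Dusp6, with a median of 29258 UMIs per cell. In anterior field control cells, with a median of 23770 UMIs, the shares were 83.0% for Fgfr1 and 54.5% for Dusp6.
Because blood was low, it lowered the level of the other cells beside which each lineage was set. With blood-positive cells left out of the other cells, a comparison added after seeing the data, 52 of 76 pairs in the remaining 8 lineages were called. Of all genes, 23.6% were then called in the anterior field, 28.2% in the posterior field, 34.4% in paraxial mesoderm, 61.6% in cardiomyocytes, 43% in endothelium, 19% in proepicardium, 22.6% in posterior lateral plate and allantois and 16.3% in neural cells. The 5 response genes called in the anterior field and the 6 in the posterior field passed there too, at 0.45 (Dusp6) to 1.29 (Spry1) and -0.62 (Spry2) to -1.31 (Spry4). Fgfr1 was then at 0.29 in the anterior field and 0.22 in paraxial mesoderm, and Dusp6 at 0.21 in endothelium and 0.44 in paraxial mesoderm, all still called. Etv4 in cardiomyocytes (0.12, adjusted p = 0.46), Spry1 in paraxial mesoderm (0.14, adjusted p = 0.217) and Fgfr2 in posterior lateral plate and allantois (0.33, adjusted p = 0.196) were no longer called.
Shares after thinning each cell to 5000 UMIs are given for control cells. In the anterior field they were 36.5% for Fgfr1, 23.8% for Spry2, 20.2% for Dusp6, 14.4% for Spry1 and 10.1% for Etv5. The same shares in blood were 3.91%, 2.79%, 0.806%, 2.11% and 0.434%. In the posterior field they were 31.1%, 12.3%, 9.73%, 3.83% and 2.61%. For Fgfr4 the anterior share of 0.134% and the blood share of 0 were not distinguishable at this depth. No UMI of Fgfr4 was seen in 694 control cardiomyocyte-positive cells, which allows a share of up to 0.530% of cells with a UMI (Clopper-Pearson, 95%, counting error only). In 519 mutant cells of this lineage the share was 0.771% (interval 0.210 to 1.96%), and 0 after thinning.

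Single cells rarely held several response genes at the thinned depth. Of 14305 cells with at least 5000 UMIs, 63.8% held a UMI of none of the 6, 26.7% of 1, 7.55% of 2 and 1.90% of 3 or more. The share with 3 or more was 5.11% in the anterior field, 3.39% in cardiomyocytes, 0.686% in the posterior field and 0 of 2284 cells in blood. It was 3.70% of 135 endoderm and epithelium cells and 2.73% of 256 neural cells.

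The anterior and posterior second heart fields were then compared directly within samples, leaving out the 384 cells positive for both. This comparison was added after the contrast above had been seen. It used 1734 anterior and 2685 posterior cells of 15 samples, with median depths of 22517.5 and 23858 UMIs. All 9 genes with enough counts passed the test, where 26.8% of all genes did (12.7% higher anteriorly and 14.1% lower). The 6 response genes and Fgfr1 were higher anteriorly while Fgfr2 and Fgfr3 were higher posteriorly.

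**Figure D3:**
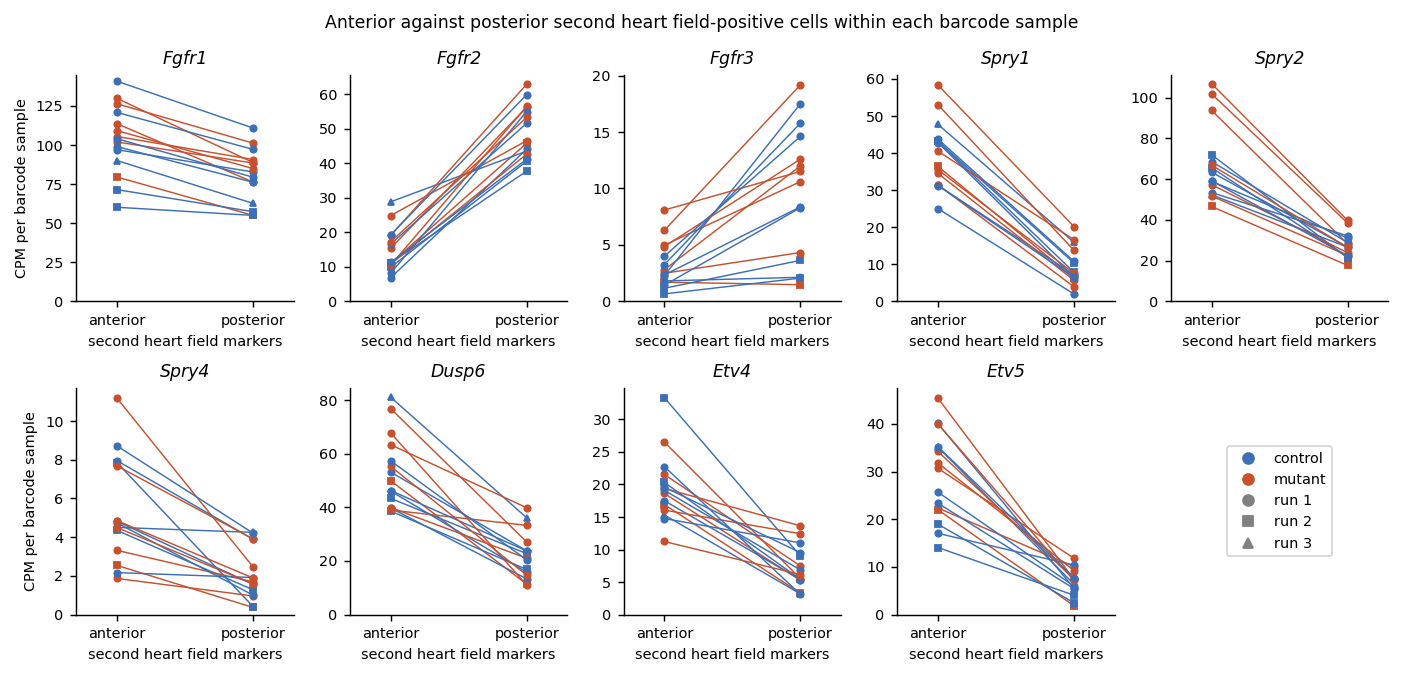
CPM (linear axes from 0) in anterior and posterior second heart field cells of the same 15 samples, joined by lines, for each of the 9 genes tested, with colours for genotype and symbols for the run. All lines of the 6 response genes and of Fgfr1 fall from anterior to posterior, all 15 of Fgfr2 rise, and 14 of 15 rise for Fgfr3.

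Spry1 showed the widest separation. It stood at 25.0 to 58.4 CPM (median 40.5) anteriorly and at 1.95 to 20.2 CPM (median 7.54) posteriorly, so the ranges did not overlap. How many of all genes lacked overlap between the fields was not counted, here and for the genes below. The log2 difference was 2.15 (SE 0.11, adjusted p = 7.75e-13), a 4.43-fold difference seen in 15 of 15 samples. Etv5 stood at 14.1 to 45.4 CPM (median 30.7) against 1.83 to 11.8 CPM (median 7.14), again without overlap. Its difference was 2.08 (SE 0.13) in 15 of 15 samples. Spry2 stood at 46.5 to 107 CPM (median 63.4) against 17.6 to 39.7 CPM (median 26.5), a difference of 1.32 (SE 0.07).

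The remaining response genes had ranges that overlapped. Dusp6 stood at 38.6 to 81.1 CPM (median 49.9) anteriorly and 11.0 to 39.8 CPM (median 21.0) posteriorly, with a difference of 1.27 (SE 0.12). Etv4 stood at 11.2 to 33.4 CPM (median 19.1) against 3.11 to 13.6 CPM (median 6.15), with a difference of 1.47 (SE 0.16). Spry4, the least abundant of the 6 in UMIs, stood at 1.86 to 11.2 CPM against 0.367 to 4.25 CPM, with a difference of 1.46 (SE 0.20). The direction was the same in 15 of 15 samples for each of them.

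The receptors were divided between the fields. Fgfr2 stood at 6.82 to 28.8 CPM (median 11.2) anteriorly and at 37.7 to 62.9 CPM (median 46.6) posteriorly, without overlap. Its log2 difference was -1.78 (SE 0.11), 3.44-fold, and the posterior cells were higher in 15 of 15 samples. Fgfr3 stood at 0.654 to 8.09 CPM against 1.47 to 19.2 CPM, with a difference of -1.63 (SE 0.17) and higher posterior values in 14 of 15 samples. Fgfr1 stood at 60.2 to 141 CPM (median 104) against 55.0 to 111 CPM (median 82.7), a difference of 0.35 (SE 0.04), the smallest of the 9. Fgfr4 had too few counts to be tested.

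The 9 calls held with at least 4 of 6 markers (21.2% of all genes called), in E8.0 samples alone (24.7%), in E9.5 samples alone (13.9%), in control samples alone (15.6%) and in mutant samples alone (15.9%). With at least 4 markers the differences of Spry4, Etv4 and Etv5 were wider, at 2.22, 2.28 and 2.87. With markers read in cells thinned to 5000 UMIs, 6 of 7 genes tested were called, where 9.7% of all genes were. Fgfr1 was the exception (0.07, adjusted p = 0.85). Gene sums kept full depth, but this fit had 12 sums of anterior or posterior cells against 30 in the main comparison.

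Genes from 3 fixed pathway lists differed between the fields in both directions. Of 18 FGF ligands 7 were tested and 4 passed, 3 higher anteriorly and 1 lower, where 26.8% of all genes passed. Fgf8 stood at 79.4 ± 41.0 CPM anteriorly and 5.25 ± 3.94 CPM posteriorly (3.94, SE 0.17, adjusted p = 4.61e-14), and Fgf10 at 20.6 ± 7.2 against 9.82 ± 3.60 CPM (0.99, SE 0.14). Fgf1 was higher by 4.15 (SE 0.41) on means of 3.93 and 0.169 CPM. Its posterior values were near the floor (median 0, at most 0.630 CPM), so the fitted difference is no exact fold. Fgf9 was lower anteriorly by -0.89 (SE 0.24, adjusted p = 0.00812) but was at 0.08 with markers read in thinned cells, and it was not called with at least 4 markers, in controls alone or in either stage alone. With markers read in thinned cells Fgf8 was at 4.95 and Fgf10 at 1.75. With at least 4 markers the fitted Fgf1 difference was 5.37, likewise no exact fold.

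Of 14 further ERK feedback and response genes tested, 10 passed, 9 of them higher anteriorly, beside the 26.8% of all genes that passed. Il17rd, a membrane inhibitor of FGF signalling known as Sef, differed by 1.71 (SE 0.13), Etv1, a relative of Etv4 and Etv5, by 1.10 (SE 0.12), and the Sprouty-related Spred1 by 0.84 (SE 0.07). Ier2, Phlda1 and Dusp9 complete the 6 with the lowest adjusted p, at 0.74, 0.69 and -0.95, and Dusp9, an ERK phosphatase, was the only one of the 10 that was lower. Of 19 co-receptor and relay genes tested 9 passed, 4 higher and 5 lower anteriorly, led by the kinase Map2k1 (0.58, SE 0.06), the adhesion protein Flrt2 (0.69, SE 0.10) and its relative Flrt3 (-0.39, SE 0.07). The calls for Flrt2 (0.45, adjusted p = 0.183), Flrt3 (-0.16, adjusted p = 0.575) and Phlda1 (0.34, adjusted p = 0.0623) were lost with markers read in thinned cells. That for Flrt2 was also lost with at least 4 markers and that for Flrt3 in E8.0 samples alone. The median log2 difference was 0.54 for the feedback genes tested, 0.18 for the ligands and -0.08 for the relay genes, beside 0.01 over all genes tested and 1.46 for the 6 response genes.

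Over development, E9.5 samples were compared with E8.0 samples across both genotypes, with no term for run unless stated. In whole-sample sums, fewer cells of a type and less RNA per cell cannot be told apart. Of the 10 genes 5 passed, where 19.5% of all genes did, 10.4% higher and 9.04% lower. Fgfr1, Fgfr3 and Spry4 were lower at E9.5, and Spry1 and Dusp6 were higher. Shares of marker-positive cells also differed. In cells pooled over samples, posterior field cells went from 31.3% at E8.0 to 17.7% at E9.5 and cardiomyocytes from 13.2 to 7.09%. Posterior lateral plate and allantois went from 8.00 to 2.37%. Per sample, the shares of each of these lineages overlapped between the stages. A positive call depends on depth, and markers read in thinned cells cut posterior field cells from 3069 to 785. Median depth was 28300 (control) and 25615 (mutant) UMIs per cell at E8.0 and 19929 and 17510 at E9.5. The parts of depth and of cell composition in these shares, and of the shares in the stage differences, were not tested.

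Fgfr1 stood at 60.6, 78.2 and 91.7 CPM in E8.0 controls and 80.4, 91.9 and 95.3 CPM in E8.0 mutants. At E9.5 controls ran from 30.6 to 81.0 CPM (median 55.8) and mutants from 35.6 to 75.0 CPM (median 62.1). The difference was -0.40 (SE 0.12, adjusted p = 0.0243). It moved with the run. Within run 1 the E9.5 controls were at 75.0 and 81.0 CPM and the mutants at 67.3 to 75.0 CPM, against 35.6 to 59.5 CPM in run 2 and 30.6 to 57.0 CPM in run 3, and the difference with run as a term was -0.15 (adjusted p = 0.301).

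Fgfr3 stood at 6.34, 7.29 and 8.75 CPM in E8.0 controls and 6.88, 7.39 and 9.03 CPM in E8.0 mutants. At E9.5 it was at 0 to 5.31 CPM (median 1.73) in controls and 2.16 to 6.94 CPM (median 5.62) in mutants. The 0 is the 6-cell Bar6, whose counting interval reaches 27.4 CPM, and without it the controls started at 1.60 CPM. The values of all E9.5 controls lay under those of all E8.0 samples, and the E9.5 mutants overlapped the E8.0 samples. How many of all genes were separated in this way was not counted. The difference was -0.79 (SE 0.22, adjusted p = 0.0133), -0.51 in run 1 alone (adjusted p = 0.028) and -0.52 with run as a term (adjusted p = 0.0788).

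Spry1 stood at 8.72, 12.0 and 14.9 CPM in E8.0 controls and 13.9, 14.1 and 16.0 CPM in E8.0 mutants, and at E9.5 at 7.44 to 18.2 CPM (median 14.6) in controls and 13.9 to 32.3 CPM (median 18.9) in mutants. Its difference was 0.54 (SE 0.17, adjusted p = 0.0281), and 0.49 with run as a term. Dusp6 was higher by 0.52 (SE 0.17, adjusted p = 0.036) and by 0.53 with run as a term. Its E8.0 values were 16.5, 20.9 and 31.1 CPM in controls and 27.1, 29.4 and 30.9 CPM in mutants. Its E9.5 values ran from 7.44 to 44.8 CPM (median 28.3) in controls and 28.3 to 47.9 CPM (median 33.8) in mutants, overlapping those of E8.0. For Spry1 and for Dusp6 the 7.44 CPM is 1 UMI in the 6-cell Bar6. Without it the controls started at 8.79 CPM for Spry1 and 18.9 CPM for Dusp6. Spry4 was lower by -0.63 (SE 0.21, adjusted p = 0.0368) and by -0.73 with run as a term.

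The count of stage calls depended on the samples. It was 3 with run as a term (18.1% of all genes called), 5 in run 1 alone (29.7%) and 1 to 5 when single samples were left out, with 1 when the E8.0 mutant sample Bar25 was dropped, 2 when Bar28 was, and 3 when Bar21, Bar24 or Bar29 was. It was 0 in controls alone by edgeR, where 3.33% of all genes were called. In that fit 2 of the 10 had an unadjusted p under 0.05, beside 17.2% of all genes. DESeq2 called 5, and 23.7% of all genes. Without single samples the Fgfr3 call held each time, and the differences of the other 4 kept their direction, at -0.46 to -0.35 for Fgfr1, 0.47 to 0.61 for Spry1, -0.74 to -0.48 for Spry4 and 0.43 to 0.60 for Dusp6. The Fgfr1 call was lost without Bar25, Bar28 or Bar29 (adjusted p up to 0.0635), and the Spry1 call without Bar21, Bar24, Bar25 or Bar28 (up to 0.0779). The Spry4 call was lost without Bar4, Bar20, Bar25, Bar28 or Bar29 (up to 0.142), and the Dusp6 call without Bar9, Bar10, Bar21, Bar24, Bar25, Bar26 or Bar27 (up to 0.105). Fgfr2, Fgfr4, Spry2, Etv4 and Etv5 were not called, with differences of 0.13, 0.63, 0.09, -0.35 and -0.28.

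Within lineages the stage means of both genotypes were as follows, given as a description with no test. Spry1 in anterior field cells was at 27.8 ± 3.3 CPM in 6 samples at E8.0 and 43.0 ± 8.3 CPM in 7 samples at E9.5. In posterior field cells Spry1 was at 6.7 ± 1.5 CPM and 19.4 ± 12.1 CPM. Spry4 in cardiomyocytes was at 15.2 ± 4.8 CPM in 6 samples and 6.80 ± 3.81 CPM in 10 samples.

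Of the ligands 13 were tested between stages and 6 passed, where 19.5% of all genes did. Fgf8 fell from E8.0 to E9.5 by 1.13 (SE 0.21, adjusted p = 0.000669), Fgf3 by 2.75 and Fgf15 by 1.48 on the log2 scale. Fgf9 (1.16), Fgf1 (1.41) and Fgf5 (2.14) rose, the last on group means of 0.21 to 1.29 CPM. The E8.0 samples held 2 to 11 UMIs of Fgf1 (0.184 to 0.767 CPM) and 2 to 8 of Fgf5 (0.166 to 0.465 CPM). At such counts the fitted differences of Fgf1 and Fgf5 are no exact folds. For Fgf3 the E8.0 control Bar24 was at 32.6 CPM and the other E8.0 samples at 2.03 to 8.32 CPM. The Fgf3 difference was -1.84 without Bar24 (adjusted p = 0.00914), -1.68 without blood-positive and endothelium-positive cells and -3.85 in controls alone. Of 21 relay genes 7 passed, 2 higher and 5 lower, among them Flrt2 (1.19), Braf (-0.39) and Mapk3 (-0.59), and of 14 feedback genes 4 passed, Etv1 higher (0.49) and Dusp9 (-0.80), Dusp4 (-0.63) and Dusp5 (-0.50) lower. These counts stand beside the same 19.5% of all genes. The Dusp5 call was lost without Bar27 (adjusted p = 0.0575), without Bar29 (-0.38, adjusted p = 0.11) and with run as a term (adjusted p = 0.0537). In controls alone, where 3.33% of all genes were called, Fgf3, Fgf15 and Dusp9 were called, and the other pathway genes named here were not.

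Between genotypes none of the 10 genes passed the test, in fits with terms for stage and run where there was more than 1. Over all stages 0 of 10 were called by edgeR, where 10.2% of all genes were, and 1 had an unadjusted p under 0.05, where 23.3% of all genes did. DESeq2 called 1 of 10, and 22.2% of all genes. The median log2 difference of the 10 was 0.16, beside 0.02 over all genes tested.

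**Figure D4:**
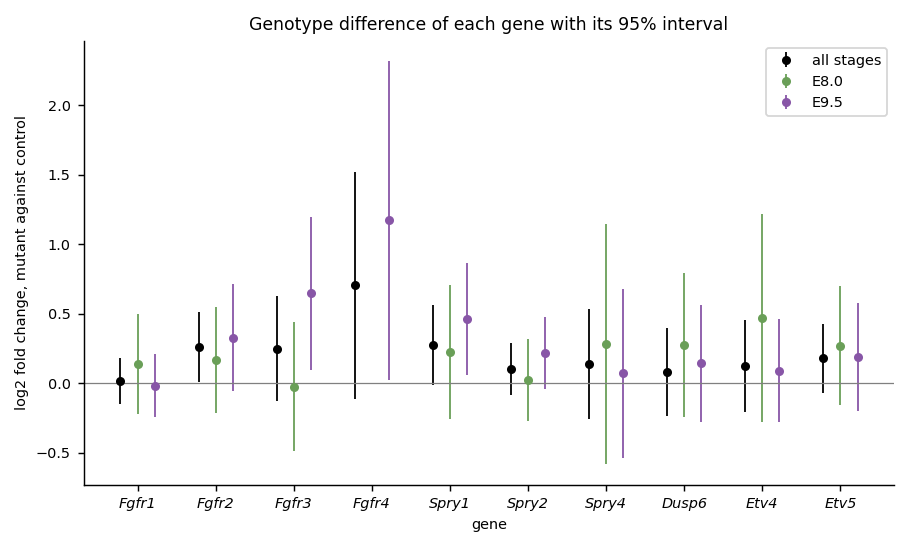
Log2 difference of mutant against control samples for each of the 10 genes, over all stages, at E8.0 and at E9.5, with 95% intervals from the standard error and the residual degrees of freedom. None passed the test over all genes; the Fgfr2 interval over all stages and those of Fgfr3, Fgfr4 and Spry1 at E9.5 lie above 0.

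Fgfr2 had the smallest adjusted p over all stages, with a difference of 0.26 (SE 0.12, 95% interval 0.01 to 0.51, adjusted p = 0.176). It was called by DESeq2 (0.31, adjusted p = 0.0159) and by edgeR without the E9.5 mutant Bar5 (0.33, adjusted p = 0.045). At E8.0 it stood at 20.1, 22.2 and 24.6 CPM in controls and 21.2, 28.7 and 29.7 CPM in mutants, and at E9.5 at 10.9 to 28.2 CPM (median 20.6) and 7.54 to 38.3 CPM (median 30.6), overlapping at both stages. Fgfr1 differed by 0.01 (interval -0.15 to 0.18), Fgfr3 by 0.25 (-0.13 to 0.63) and Fgfr4 by 0.70 (-0.11 to 1.52).

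The response genes differed by 0.08 to 0.27 over all stages. The intervals were -0.01 to 0.56 for Spry1, -0.08 to 0.29 for Spry2, -0.26 to 0.54 for Spry4, -0.24 to 0.40 for Dusp6, -0.21 to 0.46 for Etv4 and -0.07 to 0.43 for Etv5. A 1.5-fold difference lies outside each of these 6 intervals, which hold for the fit over all stages without male share as a covariate. Single stages are not covered by them, and the Etv4 interval at E8.0, given next, holds such a difference.

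At E8.0, 0 of the 9 genes tested were called by edgeR and 0 by DESeq2, where 0.0244% of all genes were called, and 0 had an unadjusted p under 0.05, where 9.84% of all genes did. Etv4 had the widest difference there, at 6.74, 9.17 and 13.4 CPM in controls and 9.98, 15.8 and 17.1 CPM in mutants, overlapping, with a log2 difference of 0.47 (interval -0.28 to 1.22, adjusted p = 0.573). Etv5 stood at 11.0, 11.5 and 16.9 CPM in controls and 16.2, 16.7 and 17.2 CPM in mutants (0.27, interval -0.15 to 0.70). Blood-positive cells made up 9.68 to 30.9% of the E8.0 control samples and 3.57 to 13.8% of the mutant ones. All 6 blood markers were detected, with a summed level of 75.4 to 325 CPM against 38.4 to 133 CPM, and the 6 cardiomyocyte markers summed to 225 to 510 CPM against 607 to 746 CPM. The part of these shares in the E8.0 differences was not tested. Without blood-positive and endothelium-positive cells 0 of the 9 were called.

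At E9.5, 0 of 10 were called by edgeR and by DESeq2, where 10.3% of all genes were called. At an unadjusted p under 0.05 there were 3 of 10 in each tool, beside 26.3% of all genes by edgeR. Fgfr3 was at 0 to 5.31 CPM in controls and 2.16 to 6.94 CPM in mutants, with a log2 difference of 0.65 (SE 0.24, adjusted p = 0.0959). It was called without the mutant Bar21 (0.86, adjusted p = 0.035). Spry1 was at 7.44 to 18.2 CPM and 13.9 to 32.3 CPM, overlapping, with a difference of 0.46 (SE 0.18, adjusted p = 0.106). The lowest control values of Fgfr3 and Spry1 are again those of the 6-cell Bar6. Fgfr4 differed by 1.17 (SE 0.50, adjusted p = 0.147) on means of 0.241 ± 0.274 and 0.835 ± 0.747 CPM. Without the filter on low counts Spry1 (0.41, adjusted p = 0.044) and Fgfr4 (1.13, adjusted p = 0.034) were called, where 7.62% of all genes were. Proepicardium markers also differed at E9.5. All 6 were detected, with a summed level of 7.44 to 49.5 CPM in controls and 59.8 to 118 CPM in mutants, without overlap. The 7.44 CPM is that of the 6-cell Bar6, where 3 UMIs would be 22.3 CPM. How many of all genes lacked such overlap was not counted. Of pooled cells 2.93% against 5.96% were positive. Per sample the positive shares overlapped, at 0 to 3.78% in controls and 1.19 to 6.79% in mutants. Fgfr2 and Fgfr3 were higher in proepicardium-positive cells than in the others in 8 of 8 samples, and the part of this shift in the E9.5 differences was not tested.

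The change of the genotype difference from E8.0 to E9.5 was tested by an interaction term. Of the 10 genes edgeR called 0, with 1 at an unadjusted p under 0.05 (11.5% of all genes), DESeq2 called 0, and 0.464% of all genes were called. Fgfr3 had the smallest p, with a difference of differences of 0.67 (interval -0.02 to 1.37, adjusted p = 0.43).

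Within lineage-positive cells, 0 of 68 pairs of gene and lineage in 8 lineages were called between genotypes by edgeR, and 5 had an unadjusted p under 0.05. Of all genes, 7.99 to 23.8% had such a p, depending on the lineage. All genes called amounted to 3.56% in cardiomyocytes, 3.12% in the anterior field, 0.199% in the posterior field, 8.34% in paraxial mesoderm, 0.487% in proepicardium, 0.0616% in posterior lateral plate and allantois, 0.0402% in blood and 0.00865% in endothelium. The smallest adjusted p was 0.168. The 5 pairs were Etv5 (0.36), Etv4 (-0.45) and Fgfr1 (-0.24) in cardiomyocytes, Etv5 in the anterior field (0.35) and Fgfr3 in posterior lateral plate and allantois (0.96). In cells positive for 1 lineage alone, 1 of 60 pairs was called, Spry1 in proepicardium (2.60, adjusted p = 0.0097), on 5 samples, where 3.44% of all genes were called. With all proepicardium-positive cells of 8 samples the Spry1 difference was 0.50 (adjusted p = 0.606).

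Of the pathway lists, 3 of 21 relay genes and 1 of 14 feedback genes passed between genotypes over all stages, counts near the 10.2% of all genes called. Of 13 ligands 0 did by edgeR, with 0 at an unadjusted p under 0.05. The adaptor Shc1 was higher in mutants (0.27, SE 0.07, adjusted p = 0.0149) and so was the phosphatase Dusp4 (0.40, SE 0.11, adjusted p = 0.026). Hras was lower (-0.36, SE 0.08, adjusted p = 0.00584) and so was Map2k2 (-0.30, SE 0.07, adjusted p = 0.0119). With male share as a covariate Shc1 (adjusted p = 0.168), Dusp4 (0.214) and Map2k2 (0.107) were no longer called. Without the E9.5 samples none of the 4 was called (adjusted p 0.219 to 0.386).
Without the E8.5 mutant Bar1, Shc1 (adjusted p = 0.0603) and Dusp4 (0.0627) were not called, and Dusp4 was also lost without the E9.5 samples Bar9, Bar21, Bar22 or Bar23. At E9.5, 1 of 11 ligands, 2 of 20 relay genes and 0 of 14 feedback genes passed, where 10.3% of all genes were called. The relay genes were Hras and Map2k2, both lower in mutants. The ligand Fgf9 was higher in E9.5 mutants (0.85, SE 0.20, adjusted p = 0.0163), on 1.26 to 7.44 CPM in controls and 3.35 to 11.2 CPM in mutants. The 7.44 CPM is 1 UMI in the 6-cell Bar6, and without it the controls ended at 5.55 CPM. The Fgf9 call was lost without the control Bar22 (0.77, adjusted p = 0.0949) or Bar23 (0.93, adjusted p = 0.0523).

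The genes whose levels followed each of the 10 most closely were looked up over 23 sums of control cells by lineage and stage, by Pearson's r of log2(CPM + 1). These sums share libraries and some share cells, and the values are a description. Blood at E8.0, E8.5 and E9.5 is among them, where all 9 of the genes tested were low. The r values without blood were not calculated. Leaving out the 10 genes themselves, Il17rd was first for Etv5 (r = 0.947) and for Etv4 (r = 0.904) and the second for Spry4 (r = 0.822). Dusp6 was followed most closely by B930095G15Rik (0.955) and the matrix protein gene Fbn2 (0.951), Spry2 by Gbe1 (0.921), and Spry1 by the homeobox genes Six2 (0.867) and Irx1 (0.848). For the receptors the first were Igf2bp2 for Fgfr1 (0.983), Crb2 for Fgfr2 (0.924), Car4 for Fgfr3 (0.866) and Nuak2 for Fgfr4 (0.841).
Among the 10 genes, over the same sums, Etv4 and Etv5 had the highest r with each other (0.93), Spry4 had 0.89 with Etv5, and Dusp6 had 0.86 with Fgfr1 and 0.84 with Spry2. Fgfr2 and Fgfr3 had 0.81 with each other. With the 6 response genes r ran from 0.61 (Spry4) to 0.86 (Dusp6) for Fgfr1, from 0.23 (Spry1) to 0.52 (Dusp6) for Fgfr2, from 0.01 (Spry1) to 0.49 (Etv5) for Fgfr3 and from -0.17 (Spry4) to 0.37 (Dusp6) for Fgfr4.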

How the data were processed

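The authors deposited raw UMI counts per gene and cell with a table that gives each cell's run, barcode, stage and condition. Per the labels' protocols, cells were sorted for the red reporter and captured with 10x Chromium version 3, with a NextSeq used for runs 2 and 3 and a NovaSeq for run 1. Per the submitters' processing notes, kallisto and bustools 0.46.1 and Cell Ranger were used with GRCm38. Cell and doublet filters are not given in the sources used here, no doublet caller was run, and all deposited cells were used.

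Counts were summed per barcode sample and tested with edgeR 4.0.16 (quasi-likelihood, TMM, filterByExpr, R 4.3.3), with stage, run and genotype as terms for genotype (terms with 1 level dropped), stage and genotype without run for stage, and Benjamini-Hochberg adjustment at 0.05 over all genes. Lineage sums needed at least 20 cells in a sample, and sample was a block in those fits and in the comparison of the heart fields. The standard error is the log2 difference divided by the root of F, and intervals use the residual degrees of freedom. Levels are CPM of the sums, given as mean ± SD over samples. Alternatives were DESeq2 1.42.0 and its size factors, no filter, left-out samples, stages and runs, male share, and stricter, thinned (5000 UMIs) or single-lineage marker rules, and other cells without blood. In the thinned rule only the markers were read at 5000 UMIs, and the gene sums kept full depth. The scripts were tested on simulated counts with 200 changed genes. The named pathway genes are those past the threshold, at most 6 per list by adjusted p, and for likeness the 3 with the highest r among genes of at least 5 CPM on average. Not every marker gene used is reported here. The 10 genes, the lists and the tests were chosen with earlier results of these data known. UMIs cover counting error only in the intervals for shares. Promoter sequences are from RefSeq.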

Additional observations from a re-analysis of the deposited data

Results flagged for a closer look

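In the 6 E9.5 control samples, the level of Spry4 in Bar6 was 14.9 CPM, and the next highest sample was at 3.37 CPM, a gap that is 0.866 of the whole range and above the critical value of 0.625 for 6 samples. Bar6 held 6 cells, and the value rests on 2 UMIs. Of 20 groups of gene, stage and genotype examined in this way, this was the 1 that stood out, and chance gives about 1 in 20.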

How the results depend on the processing

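Of 175 values for single genes, 1820 recalculations kept direction and side of the threshold, 145 lost a call, 29 gained one and 61 changed sign, none of these with a call in both; the cause was not tested. Genotype calls among the 10 genes over all stages were 1 by DESeq2 and 0 to 1 without single samples. At E9.5 they were 2 without the filter and 0 to 1 without single samples, and within lineages 1 in cells positive for 1 lineage alone. Stage calls were 3 with run as a term and 1 to 5 without single samples. They were 0 in controls alone by edgeR, with 2 at an unadjusted p under 0.05, beside 17.2% of all genes.

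Sign changes of log2 differences between genotypes over all stages were as follows. For Fgfr1 they were -0.029 without E8.0, -0.038 in run 2, -0.046 without blood and endothelium, and -0.034 to 0.049 without single samples. For Fgfr3 they were -0.11 without E9.5 and -0.35 in run 2, for Spry4 -0.29 with male share, and for Etv4 -0.058 without E8.0, -0.65 in run 2 and -0.022 with male share. For Dusp6 they were -0.012 without E8.0, -0.070 in run 3, -0.10 with male share and -0.0066 without blood and endothelium. At E8.0 they were -0.019 (Fgfr1) and -0.042 (Spry2) without blood and endothelium, and without single samples Fgfr3 ran from -0.15 to 0.074 and Spry2 from -0.041 to 0.11. At E9.5 Fgfr1 was 0.019 with DESeq2 size factors, 0.0041 by DESeq2, 0.13 in run 3, 0.034 with male share and 0.019 without blood and endothelium. Spry4 was -0.049 in run 1 and -0.30 with male share, and Dusp6 was -0.070 in run 3. Without single E9.5 samples Fgfr1 ran from -0.084 to 0.052, Spry4 from -0.017 to 0.32 and Etv4 from -0.012 to 0.20. Between stages in controls alone Fgfr4 and Spry2 were both -0.011.

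Among lineages, with stricter, thinned and single-lineage markers in that order, Fgfr3 was -0.046, -0.22 and -0.10 in cardiomyocytes and -2.47, -2.45 and -1.01 in endothelium. Spry1 was -0.24 and -0.068 in paraxial mesoderm with stricter and thinned markers. Etv5 in endothelium (0.21) and Dusp6 in posterior lateral plate (0.034) changed with single-lineage cells. Spry2 in proepicardium (0.14) changed with stricter markers, and Fgf9 between the fields (0.080) with markers read in thinned cells. With blood left out of the other cells, Fgfr1 was -0.061 in the posterior field, -0.12 in posterior lateral plate and -0.078 in neural cells, Fgfr3 was -0.065 in cardiomyocytes and Etv4 -0.025 in endothelium. Shares of cells with a UMI fell with thinning, 18 of 20 by more than 1 SD. Depth limits Fgfr4, Fgfr3 and Spry4 most. No paired analysis was possible because the replicate numbers of the 2 genotypes do not link samples, and run was a term in the genotype fits.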

Other observations

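The 75 control cells positive for endoderm and epithelium markers were too few for a fit, and their values are given with no test. Of them 17.3% held a UMI of Fgfr4 (exact 95% interval 9.57 to 27.8%), a receptor known from endodermal organs, and 6.67% did after thinning to 5000 UMIs. In these cells 64.0% held a UMI of Spry1, 49.3% of Etv5 and 61.3% of Dusp6 at a median of 24690 UMIs per cell. In blood-positive control cells, with a median of 29258 UMIs, the share was 0.0615% for Fgfr4 and 10.9% for Spry1. The intervals cover counting error only.

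The single sample labelled E7.5 control, of 28 cells and with Wls at 14.1 CPM, within the mutant range, was at 18.1 CPM for Fgfr1, 18.1 CPM for Dusp6 and 14.1 CPM for Spry2. Etv4 and Fgfr2 had no UMI in it, where 3 UMIs would have been 6.04 CPM.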
